A study of Sus scrofa with 30 samples.

Results

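Among 25880 genes measured in neonatal islet cell clusters (NICCs) of the pig, 59 were lower when maturation took place with SB431542 but differed little between fetuin-A and its control protein. SB431542 blocks the kinase of the type I TGF-beta receptor, and fetuin-A is a plasma protein secreted by the liver. NICCs are clusters of islet cells, with ducts, mesenchyme and other cells among them, prepared from the pancreas of German Landrace and Landrace-Yorkshire piglets. For the sequenced preparations 2 animals were 4 days and 2 were 12 days old, and no label says which library came from which age. RNA was sequenced in 24 libraries, 4 in each of 6 groups. HSA/day 6 is the immature starting point, with human serum albumin (HSA) as the control protein. The other groups were maturated without calf serum until culture day 10, either with HSA alone (HSA/day 10), with human fetuin-A in place of HSA (Fet-A/day 10), or with HSA and an added compound. The additions were SB431542 (HSA + SB/day 10), LDN (HSA + LDN/day 10), or SB431542 and LDN together (HSA + SB + LDN/day 10). LDN is named so in the sample labels, which do not say what it is, and nothing is assumed about it here. The libraries stem from 4 islet preparations, but no label ties a library to a preparation, so libraries were treated as unpaired. The p values therefore measure the spread between these libraries.

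The 59 genes were chosen on their CPM, the reads of a gene divided by all counted reads of its library and scaled to 1000000. For 2 groups of 4 libraries, R is the log2 ratio of the mean CPM, with 0.5 CPM added to each mean. A member had a mean of at least 1 CPM in some group, an R of HSA + SB to HSA of -1 or less with all 4 HSA + SB libraries below all 4 HSA libraries, a ratio of HSA + SB + LDN to HSA + LDN at least 1.5-fold below 1, and a ratio of Fet-A to HSA less than 1.5-fold away from 1 in either direction. Of 13860 genes with 1 CPM or more, 150 met every criterion on SB431542. Of these, 59 are the members, 80 were also lower with fetuin-A by 1.5-fold or more and 11 were higher. All libraries of HSA + SB lay below those of HSA for 5.71% of genes and, by the rule, for every member. The differences of HSA + SB from HSA, of HSA + SB + LDN from HSA + LDN and of Fet-A from HSA are therefore descriptions of how the genes were picked and carry no test. Closest to the limits inside the rule were NEDD9 (R of HSA + SB to HSA -1.02), SLC46A2 (-1.04), LAMA3 (R with LDN present -0.65), IL1R1 (-0.67), ADAMTSL2 (R of Fet-A to HSA -0.58) and GDNF (0.57), and SPN and CD8B, whose highest group means were 1.03 and 1.04 CPM. Just outside were TRPC4 and AFF2 (R of HSA + SB to HSA -0.99 and -0.96), CYS1 and SAMD11 (R with LDN present -0.57 and -0.54), and SCNN1G and SERPINE2 (R of Fet-A to HSA -0.60 and -0.61). A further 15 genes failed only because single HSA + SB and HSA libraries overlapped. Gene symbols were known for 56 of the 59 members, and the other 3 are counted without being named.

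TGF-beta and activin ligands bind receptor complexes whose type I kinase phosphorylates SMAD2 and SMAD3, which then enter the nucleus with SMAD4 and switch on target genes. Among these targets are inhibitors of the pathway itself, such as SMAD7 and SKIL, and many proteins of the extracellular matrix. In the pancreas the pathway is known for its part in endocrine differentiation and in the activation of stellate cells, which lay down matrix. SB431542 acts on the type I receptors of TGF-beta, activin and nodal and leaves those of BMP largely alone.

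Across the 59 members R of HSA + SB to HSA ran from -4.13 (S100A12) to -1.02 (NEDD9), with a median of -1.37. With LDN in both groups the median R for SB431542 was -1.02, and 58 of 59 members had the smaller difference there. The rule set its stricter limit on the groups without LDN, which favours this direction, so nothing about LDN is read from it. All 4 HSA + SB + LDN libraries lay below all 4 HSA + LDN libraries for 47 members, whereas 5.8% of the 13860 genes did so. R of Fet-A to HSA ran from -0.58 to 0.57, with a median of -0.14, 38 members being below 0, 21 above, and 24 within 0.2 of it. No member had Fet-A and HSA libraries that failed to overlap, in either direction, against 16.9% of genes lower and 12.2% higher. All 4 Fet-A libraries lay above all 4 HSA + SB libraries for 45 of them (14.5% of genes). These shares follow in part from the rule. In mean CPM in HSA/day 10 the members ranged from 1.03 (SPN) to 2131 (MMP7), 33 of them at 10 CPM or more. Summed over the members, CPM was 4630 to 6788 in HSA/day 10, 6025 to 6781 in Fet-A/day 10 and 1722 to 2177 in HSA + SB/day 10. The gap between HSA + SB/day 10 and HSA/day 10 was fixed by the rule. The rule also held the Fet-A mean of each member near that of HSA, so these sums are descriptions only.

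**Figure D1:**
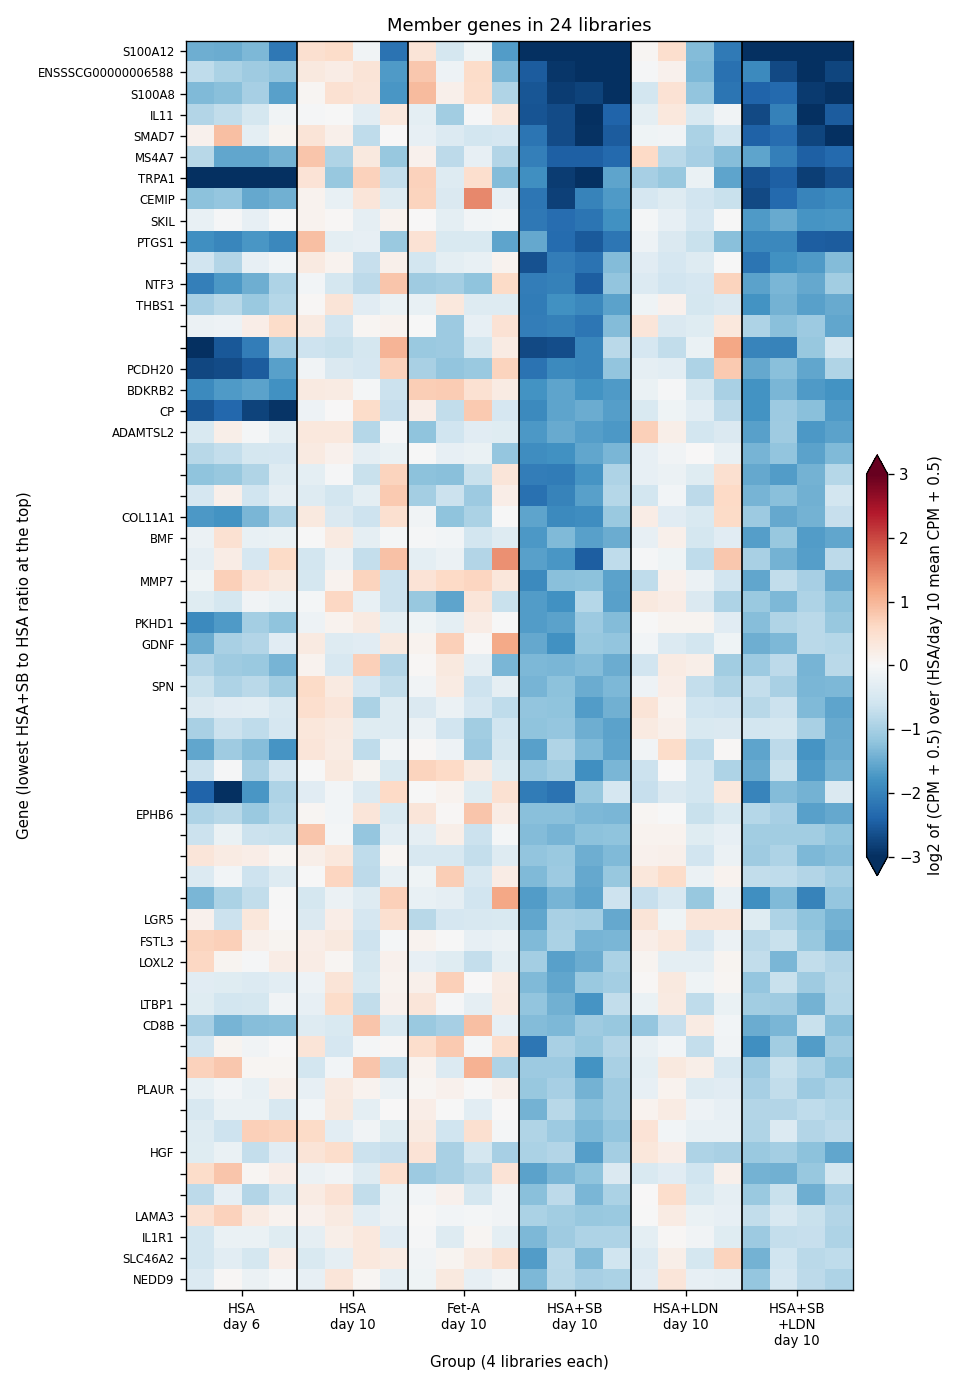
Each row is 1 of the 59 members and each column 1 of 24 libraries, 4 per group. The colour gives the log2 of CPM + 0.5 over the HSA/day 10 mean + 0.5, limited to 3 in either direction. Rows are labelled for the members chosen by the naming rule and run from the lowest ratio of HSA + SB to HSA (S100A12, -4.13) to the highest (NEDD9, -1.02). Both groups with SB431542 are mostly blue, whereas Fet-A/day 10 and HSA + LDN/day 10 look much like HSA/day 10, and HSA/day 6 is blue only for some rows such as TRPA1 and CP.

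The libraries held 18883734 to 24346119 counted reads each, so that 1 read was worth 0.041 to 0.053 CPM, and no 2 libraries of a group agreed within sampling noise. Islet hormones were present as the label says: in HSA/day 10, INS averaged 2596 ± 2321 CPM and GCG 19745 ± 4998 CPM (SD, n = 4). Markers of other cells were present too. The 12 mesenchymal markers summed to 1882 to 7845 CPM in HSA/day 10, 2624 to 5136 in HSA + SB/day 10 and 1212 to 2901 in Fet-A/day 10. Endothelial markers summed to 414 to 673, 522 to 1136 and 203 to 523 CPM in the same order, and acinar markers to 968 to 12017, 2715 to 12954 and 129 to 1998. In such bulk samples fewer cells of a type and less RNA per cell cannot be told apart. No member is on any of the 9 marker lists, and the part of these shifts in the results was not tested.

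SKIL and SMAD7, feedback inhibitors of the pathway, are both members. SKIL, a nuclear repressor of SMAD complexes that TGF-beta itself induces, stood at 96.1, 91.8, 73.4 and 96 CPM in the HSA/day 10 libraries and at 19.8, 18, 19.3 and 25 with SB431542. With fetuin-A it was 89.4, 72.8, 84.3 and 85.1 CPM, and at day 6 76.6, 87.2, 75.8 and 88.7. The ranges of these 3 groups without SB431542 overlapped, and the SB431542 libraries all lay far below. The rule chose members on their HSA/day 10, Fet-A/day 10 and HSA + SB/day 10 libraries, so each test of these groups against HSA/day 6 has 1 arm that the rule used, and its p is not independent of how the members were picked. With this limit, SKIL was lower in HSA + SB/day 10 than in HSA/day 6 by a log2 fold change of -2.07 ± 0.115 (adjusted p = 6.54e-10) in edgeR's quasi-likelihood test, the smallest adjusted p of any member in that comparison. The fold change from day 6 was 0.05 in HSA and -0.01 with fetuin-A (adjusted p = 0.759 and 0.972).

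SMAD7, the inhibitory SMAD that blocks the type I receptor, was 22.4, 19.1, 9.83 and 17.2 CPM in HSA/day 10, 14.3, 12.7, 11.6 and 11.8 with fetuin-A and 3.37, 2.25, 1.75 and 2.61 with SB431542. At day 6 it was 18.8, 32.2, 13.8 and 18.1 CPM. Even the highest SB431542 library was well below the lowest of any group without the compound. From day 6 SMAD7 fell with SB431542, with a log2 fold change of -3.12 ± 0.304 (adjusted p = 9.27e-07), whereas HSA maturation gave -0.36 (adjusted p = 0.314). With fetuin-A the fold change from day 6 was -0.74 (adjusted p = 0.0317), past the p threshold but short of the log2 fold change of 1 required of a call.

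LTBP1, which anchors latent TGF-beta in the matrix, averaged 211 ± 78.2 CPM in HSA/day 10, 227 ± 44.1 with fetuin-A and 89.3 ± 27 with SB431542 (SD, n = 4). Its highest SB431542 library (125 CPM) lay only just below its lowest HSA library (126 CPM), so the gap that made it a member was narrow. From day 6 to HSA + SB/day 10 it had a log2 fold change of -0.93 ± 0.247 (adjusted p = 0.0072), below the size of a call. FSTL3, a secreted antagonist of activin, was 84.9, 90.4, 47.8 and 70.3 CPM in HSA/day 10, 79.5, 72.2, 61.4 and 64.8 with fetuin-A and 29.2, 37.7, 27.6 and 28 with SB431542. Again fetuin-A lay within the HSA range and SB431542 below it, and FSTL3 fell from day 6 with SB431542, with a log2 fold change of -1.77 ± 0.233 (adjusted p = 2.16e-05).

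THBS1, a matrix glycoprotein that can activate latent TGF-beta, was 484, 627, 377 and 414 CPM in HSA/day 10 and 409, 593, 361 and 365 with fetuin-A. It was 238, 266, 221 and 264 CPM at day 6 and 111, 134, 125 and 155 with SB431542. The day 10 libraries without SB431542 were all above day 6, and those with SB431542 all below it. The log2 fold changes from day 6 were 0.87 ± 0.175 (adjusted p = 0.000791) in HSA, 0.79 ± 0.175 (adjusted p = 0.00104) with fetuin-A and -0.99 ± 0.176 (adjusted p = 0.000365) with SB431542, each past the p threshold and each short of a log2 fold change of 1.

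**Figure D2:**
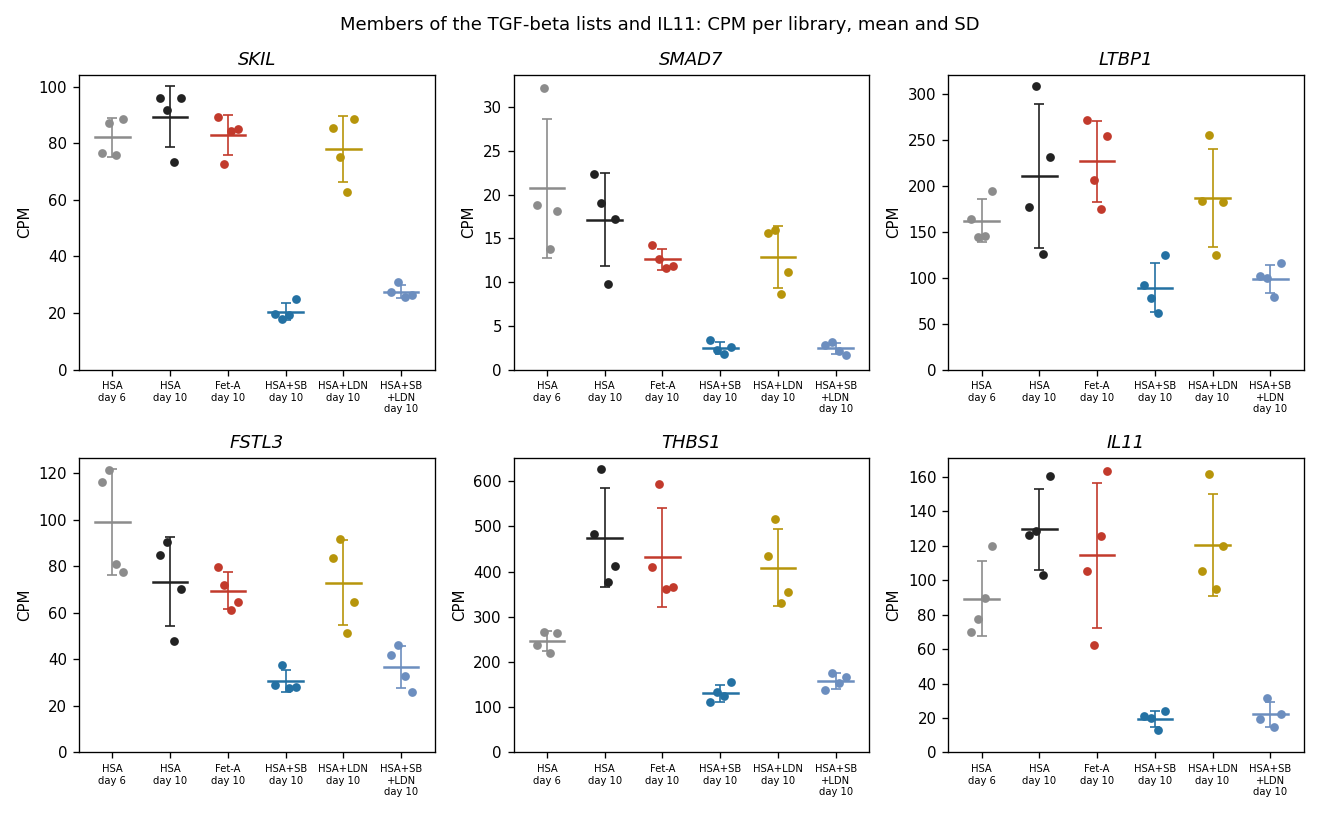
Each panel plots CPM (vertical axis, from 0) of 1 gene in the 6 groups; points are libraries, the horizontal line is the mean of 4 and the bar its SD. In all 6 panels Fet-A/day 10 overlaps HSA/day 10 while both SB431542 groups have lower means, SKIL for example at 18 to 25 CPM with SB431542 and at 73.4 CPM or more in HSA/day 10.

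TGFBR1 and SMAD3 of the same pathway are no members. The mean CPM of TGFBR1, the receptor kinase that SB431542 inhibits, was 158 ± 16.8 in HSA/day 10, 129 ± 17.8 with fetuin-A and 120.1 ± 5.78 with SB431542 (SD, n = 4), a log2 fold change of -0.39 ± 0.0824 (adjusted p = 0.00535) for SB431542. SMAD3 was 181 ± 27.7, 194 ± 26.8 and 192 ± 18.5 CPM in the same order. On a list of 34 tested SMAD2/3 target genes, 4 are members (THBS1, SKIL, FSTL3 and SMAD7), while PMEPA1, LTBP2 and NOX4 met the same SB431542 criteria but were lower with fetuin-A too. PMEPA1, another feedback inhibitor of SMAD signalling chosen here after its values were seen, was 464, 498, 252 and 487 CPM in HSA/day 10, 199, 203, 189 and 226 with fetuin-A and 57.7, 49, 50.3 and 65.1 with SB431542. Its R of Fet-A to HSA was -1.06, where SKIL had -0.11 and SMAD7 -0.43, and all 4 fetuin-A libraries of PMEPA1 lay below all 4 of HSA. Of the 34 targets, 11 were down and 0 up in HSA + SB/day 10 vs HSA/day 10, where 1.5% of all tested genes were down, and 11 were down and 4 up with fetuin-A, where 6.29% were down. The 11 down with SB431542 include the 4 members, which were lower by the rule. The counts therefore describe the list and are no test of it. The median log2 fold change of the list was -0.89 with SB431542 and -0.63 with fetuin-A, that of all genes being close to 0 in both.

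On the other lists of the pathway, 6 of 19 tested ligands, latency proteins and antagonists were down and 2 up with SB431542, and 3 down and 1 up with fetuin-A. Among 30 receptors and SMADs, 5 were down and 0 up with SB431542, and 3 down and 1 up with fetuin-A. Those down with SB431542 include members, lower by the rule: LTBP1 and FSTL3 on the former list, SMAD7 and SKIL on the latter. Of 22 genes of the BMP branch and ID genes, 0 were down and 1 (CHRDL1) was up with SB431542, and 4 were down and 0 up with fetuin-A. No member belongs to this list. Against day 6, 18 of the 34 targets were down and 1 up with SB431542 (2.33% of all genes down), 11 were down and 3 up with fetuin-A (5.01% down), and 4 were down and 2 up in HSA/day 10 (2.22% down). The 18 include the members SMAD7, SKIL and FSTL3, which the rule picked for low HSA + SB libraries.

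IL11, a cytokine of the interleukin 6 family, was among the most strongly lowered members. It was 126, 128, 103 and 160.4 CPM in HSA/day 10, 105, 62.5, 126 and 164 with fetuin-A and 21.2, 19.7, 13.1 and 23.9 with SB431542. The fetuin-A libraries spread more widely than those of HSA but all stayed above the SB431542 libraries. From day 6 (70.1, 77.5, 89.5 and 119.7 CPM) IL11 fell with SB431542, with a log2 fold change of -2.26 ± 0.27 (adjusted p = 9.3e-06). HGF and NTF3 are the other members on the list of growth factors and their receptors. HGF, a growth factor made by mesenchymal cells, averaged 14.4 ± 6.46 CPM in HSA/day 10, 10.8 ± 5.72 with fetuin-A and 6.45 ± 1.49 with SB431542. NTF3, a neurotrophin, was 3.6, 2.54, 2.02 and 7.28 CPM in HSA/day 10 and 0.534, 0.563, 0.284 and 1.43 with SB431542, and it rose from day 6 in HSA by 1.80 ± 0.535 (adjusted p = 0.0121). That call was lost without library 4 of HSA/day 10 (log2 fold change 1.31, adjusted p = 0.0689). GDNF, a neurotrophic factor placed on none of the lists, was highest with fetuin-A, at 11.7 ± 4.46 CPM against 7.69 ± 2.07 in HSA/day 10 and 2.63 ± 0.652 with SB431542.

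MMP7, a matrix protease secreted by ductal and other epithelia, was the most abundant member in CPM. It was 1469, 2305, 3387 and 1365 CPM in HSA/day 10, 2822, 3230.5, 3318 and 2708 with fetuin-A and 564, 896, 905 and 705 with SB431542. At day 6 it was 1950.5, 3483, 2815 and 2593 CPM, so that the SB431542 libraries were below every library of the other 3 groups, and the fetuin-A libraries lay in the upper part of the HSA range. The log2 fold change from day 6 was -1.89 ± 0.272 (adjusted p = 4.97e-05) with SB431542 and -0.42 in HSA (adjusted p = 0.22). LOXL2, which cross-links collagen and elastin, averaged 138 ± 29.1, 105 ± 14.4 and 58.1 ± 13.5 CPM in HSA, Fet-A and HSA + SB at day 10 and fell from day 6 with SB431542, with a log2 fold change of -1.57 ± 0.202 (adjusted p = 1.77e-05). PLAUR, the receptor of urokinase, averaged 99.2 ± 17, 105 ± 5.06 and 44.6 ± 5.38 CPM and fell with a log2 fold change of -1.13 ± 0.124 (adjusted p = 3.66e-06), which with HSA + SB + LDN/day 10 in place of HSA + SB/day 10 was -0.92 and no longer a call. At day 6 LOXL2 averaged 163 ± 34.4 and PLAUR 93.2 ± 11.7 CPM, and in both genes the day 6 and HSA/day 10 libraries overlapped.

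Among structural matrix proteins, LAMA3, a laminin chain of epithelial basement membranes, was 32.5, 30.5, 28.4 and 29.4 CPM with SB431542 and 63, 59.7, 60.6 and 59.3 with fetuin-A, against 70.1, 77.3, 51.2 and 55.8 in HSA/day 10 and 87.3, 103, 75.7 and 68.6 at day 6. The fetuin-A libraries were all below those of day 6 and the SB431542 libraries were lower still. The log2 fold change from day 6 was -1.55 ± 0.146 (adjusted p = 6.38e-07) with SB431542, -0.48 ± 0.142 (adjusted p = 0.0124) in HSA and -0.49 ± 0.142 (adjusted p = 0.00804) with fetuin-A, of which only the first reached the size of a call. ADAMTSL2, a microfibril-associated protein, averaged 1.96 ± 0.798 CPM in HSA/day 10 and 0.284 ± 0.0527 with SB431542, and fell from day 6 with SB431542, with a log2 fold change of -2.65 ± 0.441 (adjusted p = 0.000199). COL11A1, a fibrillar collagen, was the only member among 32 tested collagens, at 7.57 ± 2.91, 5.33 ± 2.3 and 2.19 ± 0.748 CPM in HSA, Fet-A and HSA + SB at day 10. Of the 32 collagens 5 were down and 1 up with SB431542, and 15 were down and 2 up with fetuin-A. Of 80 other matrix proteins 18 were down and 0 up with SB431542, and 30 down and 6 up with fetuin-A. Among 61 matrix-modifying enzymes and inhibitors 13 were down and 0 up with SB431542, and 12 down and 3 up with fetuin-A. Those down with SB431542 include members, lower by the rule: COL11A1 of the collagens, and THBS1, LTBP1, LAMA3 and ADAMTSL2 of the other matrix proteins. The same holds for MMP7, LOXL2 and PLAUR of the enzymes and inhibitors.

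Measured from the immature state, the members took 2 main courses. In HSA/day 10 vs HSA/day 6, 17 of the 59 were up and 0 down (edgeR, absolute log2 fold change above 1 and adjusted p below 0.05), whereas 6.7% of the 14842 tested genes were up and 2.22% down. In Fet-A/day 10 vs HSA/day 6, 17 were up and 0 down as well, where 4.74% of all genes were up and 5.01% down. In HSA + SB/day 10 vs HSA/day 6, 1 was up and 32 were down, where 4.9% of all genes were up and 2.33% down. At an unadjusted p under 0.05, 27, 30 and 47 members differed from day 6 in HSA, with fetuin-A and with SB431542, and the Wald test of DESeq2 also called 0 members down in HSA and with fetuin-A. The shares of all genes at that unadjusted limit and in DESeq2 are not given here. These counts are therefore not read as particular to the members. The median log2 fold change of the members was 0.46, 0.47 and -1.07 in these comparisons, where that of all genes was -0.01 in HSA and closer to 0 in the others. All 4 HSA/day 10 libraries lay above all 4 day 6 libraries for 18 members (19.4% of genes) and below them for 0 (10.9%). The Fet-A/day 10 libraries lay above day 6 for 14 (18.6%) and below it for 3, LOXL2, LAMA3 and SPSB1 (17.7%). The HSA + SB/day 10 libraries lay below day 6 for 42 (10.3%) and above it for 2, CP and TRPA1 (18.1%). The 3 comparisons share the day 6 libraries, and the counts are not independent of the choice of members. The rule took genes high in HSA/day 10 and low in HSA + SB/day 10, and it held Fet-A/day 10 within 1.5-fold of HSA/day 10, so the fetuin-A counts largely repeat those of HSA by construction.

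With the LDN groups in place of those on which the main limits were set, 13 members were up and 0 down in HSA + LDN/day 10 vs HSA/day 6 (7.1% of genes up and 2.42% down), and 1 was up and 21 were down in HSA + SB + LDN/day 10 vs HSA/day 6 (5.56% of genes up and 2.06% down). These comparisons were added after the data had been seen, and the rule used the same libraries through its looser limit.

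**Figure D3:**
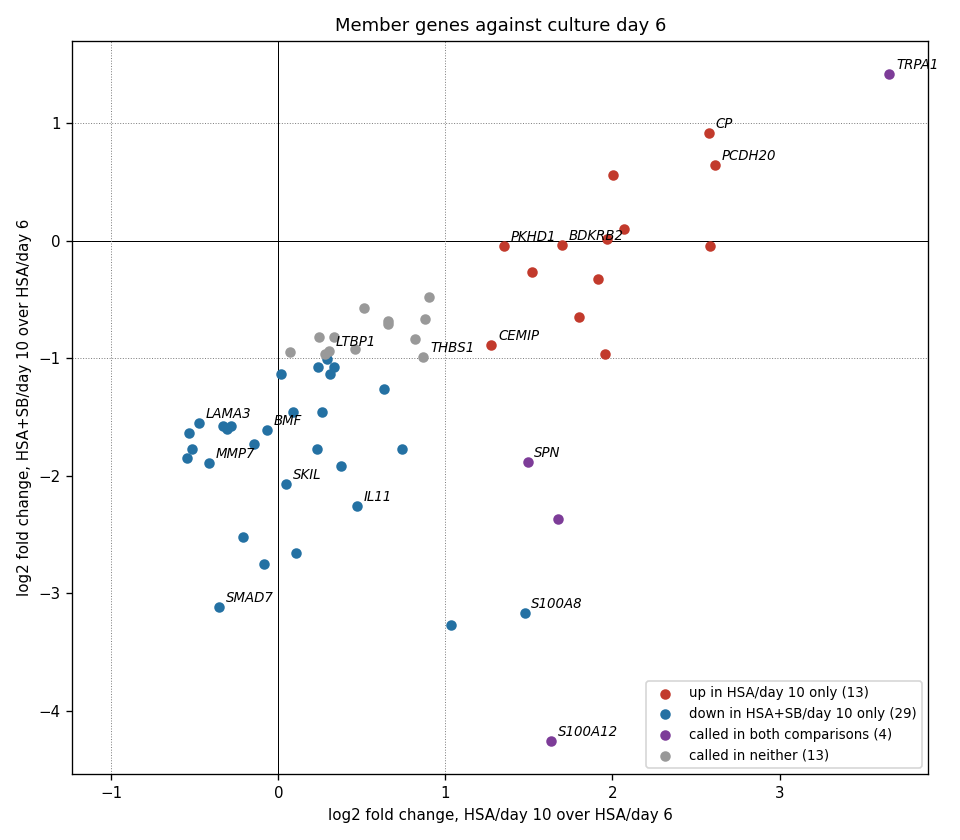
Each point is 1 of the 59 members, with the edgeR log2 fold change from HSA/day 6 to HSA/day 10 on the horizontal axis and from HSA/day 6 to HSA + SB/day 10 on the vertical axis; dotted lines mark a log2 fold change of 1 in either direction. The 29 blue points, SMAD7 and SKIL among them, were down with SB431542 and not called in HSA, and the 13 red points, CP and PKHD1 among them, rose in HSA and were not called with SB431542.

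The larger course comprised 28 members that were called in neither HSA nor fetuin-A but were below day 6 with SB431542. They include SMAD7, SKIL, FSTL3, IL11, MMP7, LOXL2, LAMA3, PLAUR, ADAMTSL2 and BMF. With fetuin-A, SMAD7, LAMA3, LOXL2, SPSB1 and GADD45B were below day 6 past the p threshold but short of the size of a call. LOXL2, SPSB1 and GADD45B had log2 fold changes of -0.67, -0.77 and -0.96 (adjusted p = 0.00931, 0.0023 and 0.0196). Above day 6, and likewise short of the size of a call, were CLMN with fetuin-A (log2 fold change 0.67, adjusted p = 0.00385) and MSC in HSA (0.63, adjusted p = 0.0212). BMF, which promotes apoptosis by binding BCL2 proteins, was 210.3, 327, 204 and 206 CPM at day 6, 237, 289.7, 199 and 228 in HSA/day 10 and 71.6, 94.7, 76.6 and 84.2 with SB431542. Library 2 was the highest of the day 6 group and lay far from the other 3, yet all of the SB431542 libraries were below all of day 6, with a log2 fold change of -1.61 ± 0.184 (adjusted p = 5.94e-06). LGR5, a receptor of R-spondins that augments WNT signalling and the only member among 39 tested WNT pathway genes, fell with a log2 fold change of -2.75 ± 0.563 (adjusted p = 0.00109) at a low level, from 1.1 ± 0.424 CPM at day 6 to 0.17 ± 0.145 with SB431542. SLC46A2, a solute carrier, had a log2 fold change of -1.07 ± 0.35 (adjusted p = 0.0244), and this call was lost without library 4 of HSA/day 6 or library 1 or 3 of HSA + SB/day 10 (log2 fold change -0.96 to -0.84, adjusted p = 0.0736 to 0.0823). The call was also lost with only the compared groups fitted and with HSA + SB + LDN/day 10 in place of HSA + SB/day 10. The others of this course were ARG1, MELTF, ADCY7, EXOC3L2, SPSB1, ALPL, NEXN, GADD45B, CUX2, KCNV1, MSC, CLMN, HTR2A, IL2RA, GAS2L2 and 1 gene without a symbol, with log2 fold changes as low as -3.27 with SB431542. They include arginase (ARG1), alkaline phosphatase (ALPL), a serotonin receptor (HTR2A) and an interleukin 2 receptor chain (IL2RA).

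The other course comprised 12 members that rose from day 6 in HSA and with fetuin-A and were not called with SB431542. BDKRB2, the bradykinin receptor B2, had the smallest adjusted p of the members with fetuin-A. It was 27.8, 32.1, 34.4 and 29.8 CPM at day 6, 128, 125, 102 and 67.6 in HSA/day 10 and 29.9, 35.1, 29.9 and 32 with SB431542. With fetuin-A it was 178, 179.7, 146 and 125 CPM, so the SB431542 libraries overlapped those of day 6 and the fetuin-A libraries in or above the upper part of the HSA range. The log2 fold change from day 6 was 1.70 ± 0.194 (adjusted p = 4.71e-06) in HSA, 2.32 ± 0.197 (adjusted p = 3.46e-08) with fetuin-A and -0.04 with SB431542.

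PKHD1, whose product fibrocystin belongs to the primary cilium of duct cells, was 126, 147, 236 and 207 CPM at day 6, 432, 510.4, 574 and 392 in HSA/day 10, 436, 391, 557 and 476 with fetuin-A and 149, 157, 226 and 194 with SB431542. Its rise from day 6 was 1.35 ± 0.173 (adjusted p = 1.32e-05) in HSA and 1.37 ± 0.173 (adjusted p = 3.33e-06) with fetuin-A, and the value with SB431542 was -0.04. The 8 duct markers summed to 5288 to 9013 CPM in HSA/day 10 and 6568 to 7796 with SB431542, ranges that overlap. CP, the copper-carrying plasma protein ceruloplasmin, was 27.1, 31.2, 23.3 and 20.7 CPM at day 6, 145, 163, 238 and 100.5 in HSA/day 10, 184, 96.1, 277 and 113 with fetuin-A and 42.8, 53.2, 57.6 and 50.8 with SB431542. CP rose by 2.58 ± 0.295 (adjusted p = 4.71e-06) in HSA and 2.68 ± 0.296 (adjusted p = 6.78e-07) with fetuin-A. With SB431542 all 4 libraries were still above day 6, but the log2 fold change of 0.92 ± 0.284 (adjusted p = 0.0181) was below the size of a call.

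CEMIP, which takes part in the breakdown of hyaluronan, averaged 23.4 ± 2.81 CPM at day 6, 59.8 ± 14.2 in HSA/day 10, 88.5 ± 55.3 with fetuin-A and 13.3 ± 4.05 with SB431542. It rose by 1.27 ± 0.308 (adjusted p = 0.00312) in HSA and by 1.89 ± 0.311 (adjusted p = 6.2e-05) with fetuin-A, while with HSA + LDN/day 10 in place of HSA/day 10 the log2 fold change was 0.73 (adjusted p = 0.0632). With SB431542 CEMIP was below day 6, with a log2 fold change of -0.89 ± 0.314 (adjusted p = 0.036), past the p threshold but short of the size of a call. PCDH20, a protocadherin of cell adhesion, was 0.917, 0.958, 1.16 and 2.55 CPM at day 6, 8.24, 6.51, 6.15 and 14.8 in HSA/day 10, 4.29, 3.64, 3.85 and 14.6 with fetuin-A and 1.52, 2, 1.94 and 3.65 with SB431542. In each of these groups library 4 stood well above the other 3, and the rise from day 6 was 2.61 ± 0.495 (adjusted p = 0.000477) in HSA and 2.23 ± 0.493 (adjusted p = 0.00103) with fetuin-A. PTGS1, the cyclooxygenase COX-1, averaged 4.05 ± 0.304 CPM at day 6, 16 ± 10.1 in HSA/day 10 and 3.39 ± 1.24 with SB431542, a rise of 1.91 ± 0.412 (adjusted p = 0.00134) in HSA. COL11A1 rose by 1.52 ± 0.353 (adjusted p = 0.00245) in HSA, and with fetuin-A by 1.06 ± 0.353 (adjusted p = 0.0186), the latter call being lost without library 1 or 2 of HSA/day 6 or library 1 or 4 of Fet-A/day 10 (log2 fold change 0.85 to 0.98, adjusted p = 0.0554 to 0.0722). SLITRK6, TAC1 (the precursor of substance P), ACKR4 (a scavenger receptor of chemokines), CD8B and 1 gene without a symbol make up the rest.

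TRPA1, a cation channel of irritant-sensing neurones, was the only member called up in all 3 comparisons with day 6. It was 6.01, 1.57, 3.66 and 5.3 CPM at day 6, 73.3, 24.8, 88.6 and 33.3 in HSA/day 10, 89.6, 41.8, 78 and 22 with fetuin-A and 14.9, 7.22, 6.43 and 18 with SB431542. The SB431542 libraries thus lay between those of day 6 and those of the other day 10 groups. The log2 fold change from day 6 was 3.66 ± 0.524 (adjusted p = 3.83e-05) in HSA, 3.78 ± 0.526 (adjusted p = 9.55e-06) with fetuin-A and 1.42 ± 0.507 (adjusted p = 0.0376) with SB431542. The last of these calls was lost without library 2 or 3 of HSA/day 6 or library 1 or 4 of HSA + SB/day 10 (log2 fold change 1.15 to 1.36, adjusted p = 0.0798 to 0.122). That call was also lost with only the compared groups fitted and with HSA + SB + LDN/day 10 in place of HSA + SB/day 10. MSC, a bHLH transcription factor and also a member, lies 1 gene away from TRPA1 in the gene order of the RefSeq annotation of Sscrofa11.1, and was picked out after its values were seen. It averaged 6.54 ± 1.26 CPM in HSA/day 10 and 1.76 ± 0.369 with SB431542.

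**Figure D4:**
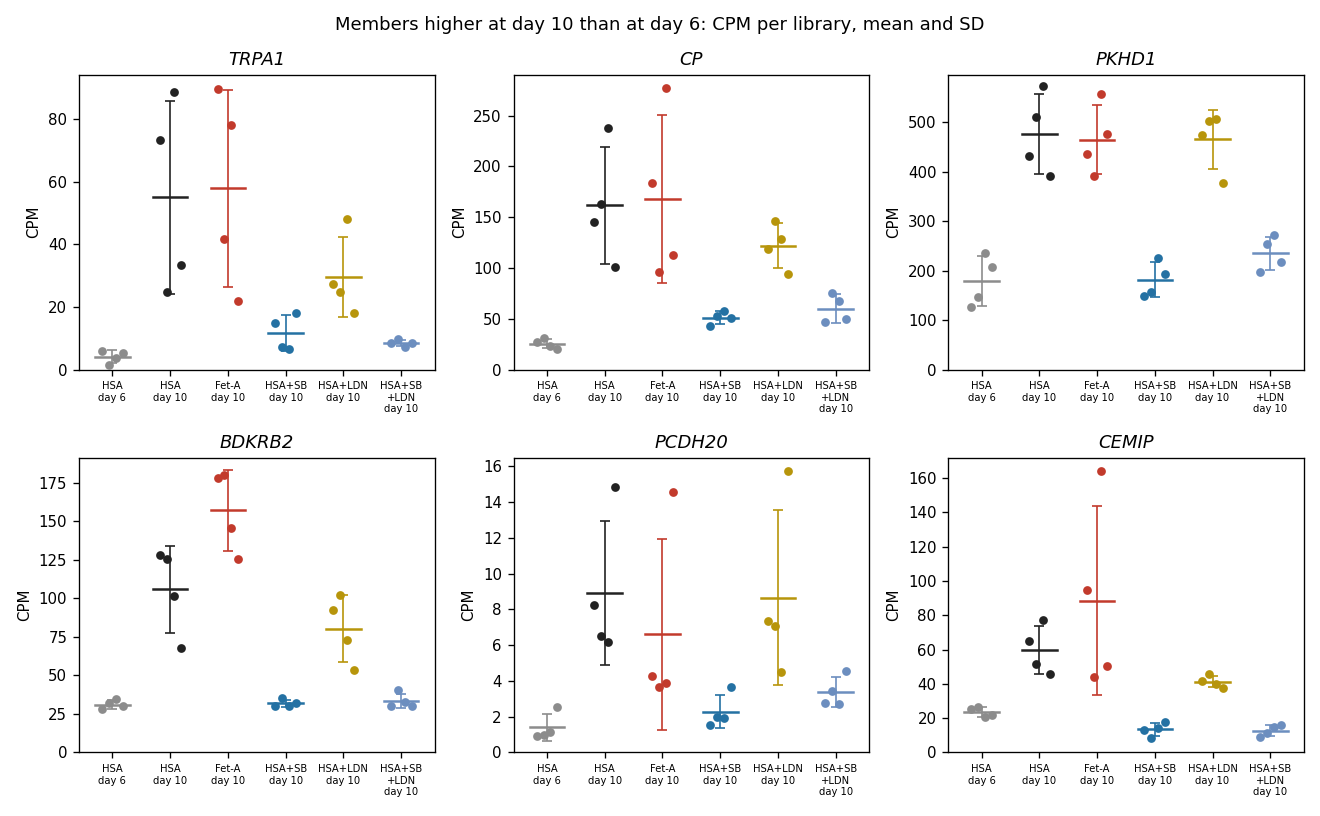
Each panel plots CPM (vertical axis, from 0) of 1 gene in the 6 groups; points are libraries, the horizontal line is the mean of 4 and the bar its SD. All 6 genes have higher means in HSA/day 10 and Fet-A/day 10 than at day 6, BDKRB2 for example at 67.6 to 128 CPM in HSA/day 10 against 27.8 to 34.4, and lower means again with SB431542.

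Of the remaining members, EPHB6, a receptor of the ephrin family without kinase activity, and GDNF rose from day 6 with fetuin-A, with log2 fold changes of 1.36 ± 0.215 (adjusted p = 3.99e-05) and 1.54 ± 0.278 (adjusted p = 0.000154). Both rose in HSA too, by 0.90 (adjusted p = 0.00273) and 0.88 (adjusted p = 0.0167), past the p threshold but short of a log2 fold change of 1. The difference between fetuin-A and HSA is part of the rule and was not tested. A further 11 members were called in none of the 3 comparisons, among them THBS1, LTBP1, HGF, IL1R1 and NEDD9. IL1R1, the receptor of interleukin 1, averaged 417 ± 91.5, 374 ± 53.7 and 199 ± 26.4 CPM in HSA, Fet-A and HSA + SB at day 10, and NEDD9, an adaptor protein of integrin signalling, 191 ± 40.0, 187 ± 33.1 and 94 ± 13.6. Both were below day 6 with SB431542 by a log2 fold change of less than 1, at -0.82 ± 0.141 (adjusted p = 0.00027) and -0.95 ± 0.177 (adjusted p = 0.000535). VASH2, HABP2, PLA2G4A and TM7SF2 are also among these 11, with an R of HSA + SB to HSA between -1.63 and -1.12.

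The lowest ratio of all, that of S100A12, belonged to a small set of members of low expression that are best known from white blood cells. S100A12, a calcium-binding protein of neutrophils and monocytes, was 15.8, 16.8, 10.4 and 2.04 CPM in HSA/day 10 and 14.8, 7.65, 10.3 and 3.19 with fetuin-A. With SB431542 it was 0.452, 0, 0.189 and 0.0493 CPM, that is 0 to 11 reads per library, and at day 6 3.76, 3.7, 4.13 and 2.17. S100A8, its neighbour in the genome and a protein of the same cells, was 4.37, 5.98, 5.52 and 0.89 CPM in HSA/day 10, 8.59, 4.68, 6.31 and 2.02 with fetuin-A and 0.287, 0.154, 0.189 and 0 with SB431542 (0 to 7 reads). In both genes library 4 of HSA/day 10 was several times lower than the other 3 and yet above all SB431542 libraries. For S100A12, library 4 was also the lowest of its group in HSA/day 6, Fet-A/day 10 and HSA + LDN/day 10. Both fell from day 6 with SB431542, with a log2 fold change of -4.26 ± 0.875 (adjusted p = 0.00113) for S100A12 and -3.16 ± 0.804 (adjusted p = 0.00543) for S100A8.

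MS4A7, a membrane protein of macrophages, was 1.33, 0.61, 0.603 and 0.722 CPM at day 6, 5.33, 1.24, 3.5 and 0.995 in HSA/day 10 and 0.287, 0.102, 0.0946 and 0.148 with SB431542. SPN, the leukocyte sialoglycoprotein CD43, averaged 0.344 ± 0.0932, 1.03 ± 0.639 and 0.0954 ± 0.0443 CPM in the same groups, and CD8B, a chain of the T cell coreceptor, 0.162 ± 0.0801, 1.04 ± 0.801 and 0.165 ± 0.0628. At this depth SPN had 1 to 3 reads in each SB431542 library and CD8B 2 to 5. The calls of these genes were fragile. S100A12 was up in HSA vs day 6 by 1.63 ± 0.635 (adjusted p = 0.0485), a call lost without library 1, 2, 3 or 4 of HSA/day 6 or library 1, 2 or 3 of HSA/day 10 (log2 fold change 1.38 to 1.72, adjusted p = 0.0639 to 0.119). The call was also lost with no filter on low counts, with only the compared groups fitted and with HSA + LDN/day 10 in place of HSA/day 10. MS4A7 was up in HSA vs day 6 by 1.67 ± 0.579 (adjusted p = 0.0279), a call lost without library 2, 3 or 4 of HSA/day 6 or library 1 or 3 of HSA/day 10 (adjusted p = 0.0585 to 0.138). It fell from day 6 with SB431542, with a log2 fold change of -2.37 ± 0.742 (adjusted p = 0.0196), a call lost without library 1 of HSA/day 6 or library 3 of HSA + SB/day 10 (log2 fold change -2.19 to -1.98, adjusted p = 0.0562 to 0.0747). The rise of MS4A7 was also lost with only the compared groups fitted and with HSA + LDN/day 10 in place of HSA/day 10. Its fall was lost with HSA + SB + LDN/day 10 in place of HSA + SB/day 10.

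SPN was called in all 3 comparisons with day 6, and each call was lost without some single libraries. In HSA it was up by 1.49 ± 0.506 (adjusted p = 0.0252), a call lost without library 2 or 4 of HSA/day 6 or library 1 or 2 of HSA/day 10 (log2 fold change 1.09 to 1.44, adjusted p = 0.0614 to 0.114). With fetuin-A it was up by 1.31 ± 0.511 (adjusted p = 0.0426), a call lost without library 2, 3 or 4 of HSA/day 6 or library 1, 2 or 4 of Fet-A/day 10 (log2 fold change 1.04 to 1.37, adjusted p = 0.0538 to 0.139). With SB431542 it was down, with a log2 fold change of -1.88 ± 0.675 (adjusted p = 0.0385), a call lost without library 1, 2 or 3 of HSA/day 6 or library 1, 3 or 4 of HSA + SB/day 10 (log2 fold change -1.93 to -1.67, adjusted p = 0.0587 to 0.103). With no filter on low counts the SPN calls with fetuin-A and with SB431542 were lost too. Those in HSA and with SB431542 were lost with the matching LDN group in place of HSA/day 10 or HSA + SB/day 10. The rise of CD8B was 2.58 ± 0.785 (adjusted p = 0.014) in HSA, lost without library 3 of HSA/day 10 (log2 fold change 1.89, adjusted p = 0.0745), and 2.43 ± 0.793 (adjusted p = 0.0171) with fetuin-A, lost without library 3 of Fet-A/day 10 (log2 fold change 1.35, adjusted p = 0.17). S100A8 rose from day 6 with fetuin-A by 1.89 ± 0.611 (adjusted p = 0.0161), a call lost without library 1 of Fet-A/day 10 (log2 fold change 1.57, adjusted p = 0.0556). On the list of general immune markers, 1 (CD74) of 8 tested was up and 0 were down in HSA + SB/day 10 vs HSA/day 10. Their median log2 fold change was 0.19, and over all genes 0.916% were up and 1.5% down. The 10 on the list, which include PTPRC, CD68 and CSF1R, summed to 47 to 90.3 CPM in HSA/day 10, 29.4 to 44.8 with fetuin-A and 88.3 to 105 with SB431542, and CD3E and MPO were at 0 in the HSA and HSA + SB groups. CD68, a marker of macrophages, averaged 13.3 ± 4.43 CPM in HSA/day 10 and 20.1 ± 7.47 with SB431542, and was not called. The part of immune cell numbers in the levels of S100A12, S100A8, MS4A7, SPN and CD8B was not tested.

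**Figure D5:**
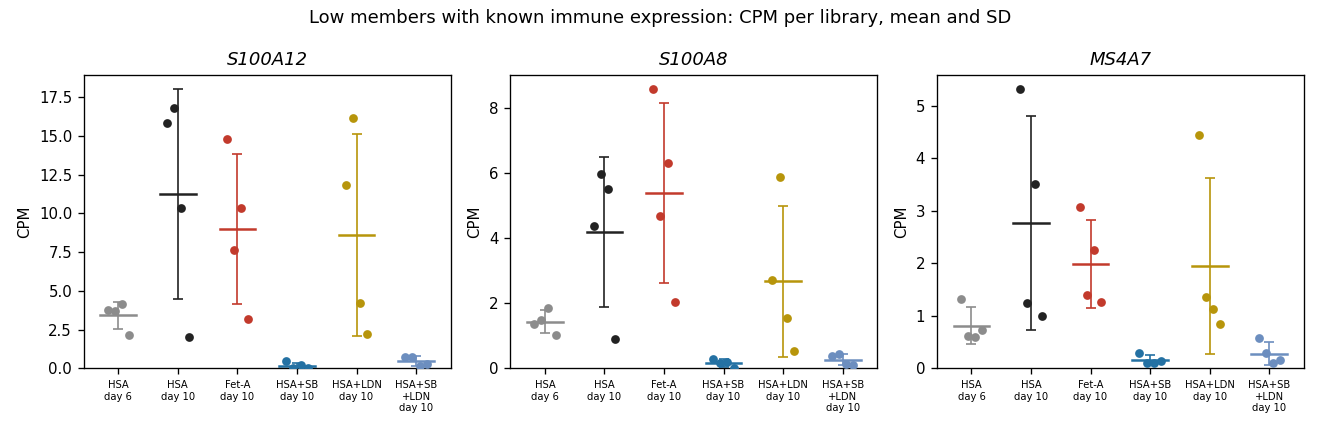
Each panel plots CPM (vertical axis, from 0) of 1 gene in the 6 groups; points are libraries, the horizontal line is the mean of 4 and the bar its SD. S100A12 spreads from 2.04 to 16.8 CPM among the HSA/day 10 libraries and stays at 0.452 CPM or less with SB431542.

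No member was called for LDN, which does not show that the levels were alike. In HSA + LDN/day 10 vs HSA/day 10, 0 members were up or down in edgeR, 0 with the Wald test of DESeq2, and 1 (BDKRB2) had an unadjusted p under 0.05. Over all tested genes 0% were called up and 0% down in edgeR. CEMIP was the only member whose 4 HSA + LDN libraries, 41.8, 45.5, 40.0 and 37.5 CPM, all lay below those of HSA/day 10, against 0.411% of genes. Added to SB431542, LDN gave 0 members up or down vs HSA + SB/day 10 in edgeR and in DESeq2, again with 0% of all genes called in edgeR. At an unadjusted p under 0.05 there were 5 members. The share of all genes at that unadjusted limit is not given here for either comparison, so these counts are not read as particular to the members. In 5 members (SKIL, LAMA3, KCNV1, IL2RA and GAS2L2) all 4 libraries with both compounds lay above all 4 with SB431542 alone, against 0.96% of genes. SKIL, for example, was 27.3, 30.9, 25.8 and 26.3 CPM with both compounds, a log2 fold change of 0.43 ± 0.113 (adjusted p = 1), and below every HSA + LDN library, which were 85.4, 75.2, 62.8 and 88.8. Members were picked for high HSA/day 10 and low HSA + SB/day 10 libraries, which favours lower values in HSA + LDN/day 10 and higher ones with both compounds, so nothing about LDN is read from these directions. SMAD7 averaged 12.9 ± 3.53 CPM with LDN and 2.44 ± 0.642 with both.

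Absence of members from a list says little about them. The rule bars genes that differed 1.5-fold or more with fetuin-A and genes that were not lower with SB431542. The 59 members are also few among the 13860 genes with 1 CPM or more, so a short list may hold none. No member is among the 28 tested genes of islet maturation and beta cell function, of which 18 rose in HSA/day 10 vs HSA/day 6. In that list 0 genes were up and 1 (RGS16) down in HSA + SB/day 10 vs HSA/day 10, where 0.916% of all genes were up and 1.5% down, and 0 were up and 17 down with fetuin-A, where 1.84% were up and 6.29% down. The same shares of all genes apply to the lists that follow. No member is among 17 proliferation genes either, of which 0 were called with SB431542 and 17 were down with fetuin-A, nor among 55 listed integrins, cadherins and other adhesion genes (2 down with SB431542, and 10 down and 2 up with fetuin-A) or 25 contractile genes (0 called with SB431542, 2 down and 2 up with fetuin-A). The adhesion list leaves out the member PCDH20, a protocadherin. Of the 39 WNT genes 5 were down with SB431542, and 8 down and 4 up with fetuin-A. Of the 50 growth factors and receptors 3 were down with SB431542, and 7 down and 5 up with fetuin-A. LGR5 of the WNT genes, and IL11 and NTF3 of the growth factors, are members and were lower by the rule. In all, 15 members are on 1 or more of the 13 gene lists and 44 on none.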

How the data were processed

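RNA of 24 libraries (30 sequencing runs, 6 libraries having 2 runs in 1 column) was read as 75 bp single reads from a strand-specific poly-A protocol. The authors deposited whole-number read counts per Ensembl gene, not normalised. Their processing notes name FastQC 0.11.8, Trim Galore 0.5, STAR 2.6.1, Picard, featureCounts 1.6.2 and DESeq2 1.22.1. The genome build is not given in the sources used here. Genes in families or overlapping others may share reads. CPM values were computed from column totals of 18883734 to 24346119 counts. Comparisons used edgeR 4.0.16 (R 4.3.3): filterByExpr, TMM, 1 quasi-likelihood fit over all 6 groups and Benjamini-Hochberg adjustment over 14842 genes. A call required an adjusted p below 0.05 and an absolute log2 fold change above 1, the limits of the study, and every adjusted p printed comes from this test. Values after ± are SD over 4 libraries for CPM and standard errors for log2 fold changes. The test was tried first on simulated data with known answers. Alternatives were DESeq2 1.42.0, its size factors, other filters, surrogate variables (sva 3.50.0), the compared groups alone and each library left out. The members and the gene lists were chosen with earlier results of these data known. Named were the 10 most abundant members, the 10 with the lowest ratio of HSA + SB to HSA, up to 5 with the smallest adjusted p per comparison and direction, members on a list and those nearest to a limit. Other members are listed by name or counted. Sequences were not used here, and of genome positions only the gene order in the RefSeq table of Sscrofa11.1. Results on some genes are not reported here.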

Additional observations from a re-analysis of the deposited data

Results flagged for a closer look

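In groups of 4 libraries, 14 of 222 sets of values (6.31%) held a library whose gap to the nearest other exceeded the critical value of Dixon's test, where chance gives about 5%. At day 6, BMF was 327 CPM in library 2 and 204 to 210.3 in the others, MS4A7 was 1.33 CPM in library 1 and 0.603 to 0.722 in the others, and PCDH20 was 2.55 CPM in library 4 and 0.917 to 1.16 in the others. In HSA/day 10, CD8B was 2.24 CPM in library 3 and 0.622 to 0.683 in the others. In Fet-A/day 10, library 4 was high for PCDH20 (14.6 CPM, the others 3.64 to 4.29) and NTF3 (6.02 CPM, the others 1.40 to 1.66), and library 1 was low for LGR5 (0.394 CPM, the others 0.63 to 0.658).

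In HSA + SB/day 10 the summed CPM of the 59 members was 1722 in library 1 and 2160 to 2177 in the others, and FSTL3 was 37.7 CPM in library 2 and 27.6 to 29.2 in the others. In HSA + LDN/day 10, NEDD9 was 245 CPM in library 2 (151 to 162 in the others), MS4A7 was 4.44 CPM in library 1 (0.847 to 1.36), NTF3 was 6.41 CPM in library 4 (2.41 to 2.80) and LGR5 was 0.956 CPM in library 2 (1.54 to 1.59). In HSA + SB + LDN/day 10, ADAMTSL2 was 0.666 CPM in library 2 and 0.239 to 0.304 in the others. The cause of these deviations was not tested.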

How the results depend on the processing

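No paired analysis was run because no label ties a library to an islet preparation. Libraries are numbered within each group in the order of deposit. Some members had levels that went with this number: library 4 was the highest in all 6 groups for VASH2, SLITRK6 and PCDH20. Whether the numbers mark preparations is not stated, and the p values take no account of it. With at least 10 counts required in every library, which 46 members met, 10 were up in HSA/day 10 vs HSA/day 6 in place of 17, fewer members being testable. With 3 surrogate variables 1 member was down in Fet-A/day 10 and 2 were up in HSA + SB/day 10 vs HSA/day 6, in place of 0 and 1, and with only the groups compared 0 were up in HSA + SB/day 10. With HSA + SB + LDN/day 10 in place of HSA + SB/day 10, an alternative chosen after seeing the data, 21 were down in place of 32. The cause of these shifts was not tested. Leaving out 1 library gave 14 to 17 up in HSA, 14 to 17 up and 0 to 1 down with fetuin-A, and 0 to 1 up and 28 to 35 down with SB431542. The 1 member down with fetuin-A appeared without library 3 or 4 of HSA/day 6 or library 4 of Fet-A/day 10. The rule itself gave 50 to 84 members with 1 library left out, 38 to 59 of them shared with the 59, the 84 without library 4 of HSA + SB/day 10, and 60 members (56 shared) with TMM-scaled CPM. Of 44 calls of named members, 29 held under every alternative run, 15 were lost at least once and 0 reversed. Calls of SPN, S100A12 and MS4A7, all at low counts, were lost under the most alternatives.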
